A study of Homo sapiens with 3 samples.

Results

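NADPH oxidases are membrane enzymes that pass electrons from NADPH to oxygen and so release superoxide or hydrogen peroxide, and 10 genes of this family and its subunits were followed here: DUOX2, DUOX1, DUOXA2, DUOXA1, NOX1, NOX4, NOX5, CYBA, NOXO1 and NOXA1. They were chosen by name and were 10 of the 58302 genes in the deposited table. The question was which of these sources of peroxide or superoxide the cells transcribe at all. The cells were HCT116, an established human colorectal cancer line, in 3 RNA-seq libraries. One library came from cells given siRNA 1 against DUOX2, one from cells given siRNA 2 against DUOX2, and one from cells given a control siRNA (labelled si1, si2 and NC, where NC was taken as the control). All 3 thus hold cells given an siRNA. The labels give no dose, time or separate cultures for these libraries. P-values below therefore rest on how far the libraries of siRNA 1 and siRNA 2 lie apart, and that spread may be technical. Retinas are named in the labels' protocol although the cells are a colon line, and of 8 retinal markers 5 had 0 counts in all 3 libraries (PDE6B, GNAT1, CRX and SAG among them) and 2 had more than 3 counts in a library, with at most 14.

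The family falls into catalytic proteins and the partners they need. DUOX1 and DUOX2 make hydrogen peroxide at the cell surface under the control of calcium, and each leaves the endoplasmic reticulum with its own maturation factor, DUOXA1 or DUOXA2. DUOX2 is the DUOX of thyroid and gut epithelium. NOX1 is the superoxide-making oxidase of colon epithelium and works as a complex with p22phox (the product of CYBA), the organizer NOXO1, the activator NOXA1 and a RAC GTPase, whereas NOX4 needs p22phox alone and NOX5 is driven by calcium without these subunits.

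The siRNAs are shown because they define the groups. Each is given as its 19-base sense strand, in lower case and in RNA letters, from the labels.
siRNA 1: ggaggacaacauagugguu
siRNA 2: ccaugaugcgauccuucau
control siRNA: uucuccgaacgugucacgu
Both DUOX2 sequences matched DUOX2 alone among GENCODE 29 transcripts, in coding sequence, siRNA 1 in exon 11 of 34 (chr15:45109537-45109555, GRCh38) and siRNA 2 split over exons 20 and 21 (its outer bases at 45101981 and 45103969). The best sites in DUOX1, the closest relative, are given below in DNA letters, with the mismatched bases in capitals.
DUOX1, best site for siRNA 1: AgaggacCaTGtGTtggtt
DUOX1, best site for siRNA 2: GGatgCtgAgatccttcat
These carried 6 and 4 mismatches. Against the other 8 genes the fewest mismatches were 5 of 19 for siRNA 1, in NOX4, and 6 for siRNA 2, in NOX5. The control sequence matched no transcript in full.

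HCT116 cells had reads above the counting floor, set at 3 counts, for 3 of the 10 genes, and all 3 were subunits rather than oxidases: CYBA, NOXA1 and NOXO1. Reads for NOXO1 are uncertain, since 98.8% of its exon bases lie under exons of TBL3 on the other strand. Whether counting used strand is not given. None of the 5 catalytic genes and neither maturation factor had more than 2 counts in a library. Over 3 counts in at least 1 library were seen in 14157 of 19817 protein-coding genes, or 71.4%, so a share of 3 in 10 lies below the share for protein-coding genes at large. Of the 10 genes, 4 had 0 counts in every library, beside 23.1% of protein-coding genes, and 3 had between 1 and 3 counts at most in a library, beside 5.50%. The plot of CPM shows the 2 sets of genes apart, with the subunits at the right.

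**Figure D1:**
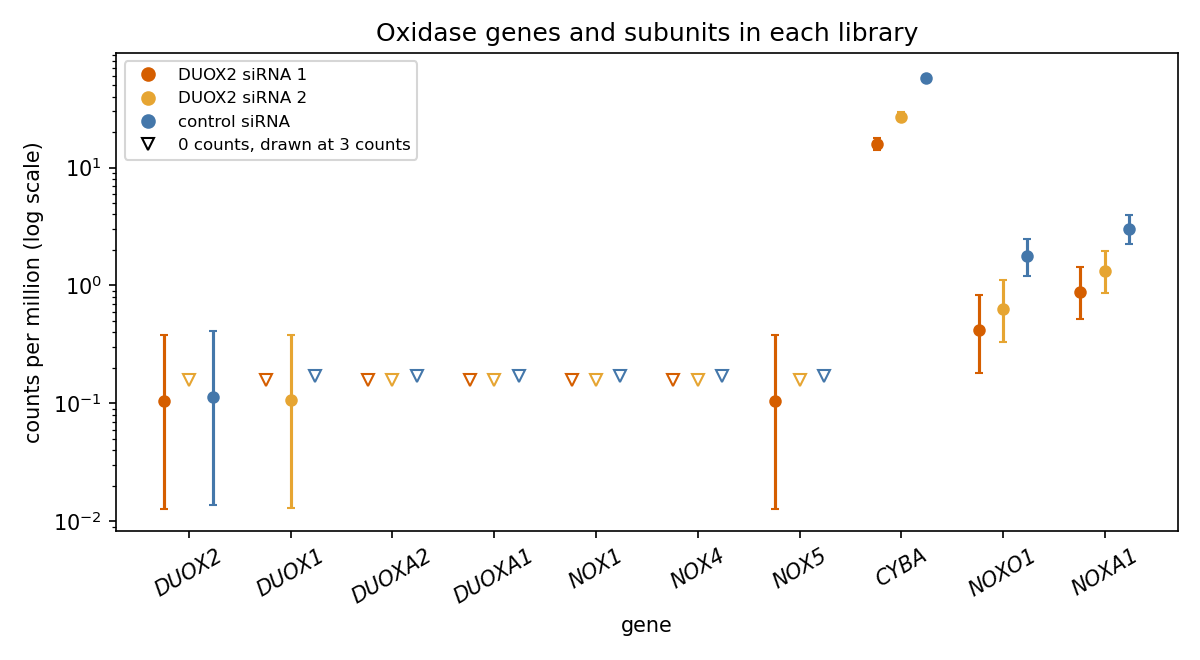
CPM (counts scaled to the library total, vertical axis, log scale) of the 10 genes (horizontal axis) in the siRNA 1, siRNA 2 and control libraries, with 95% Poisson intervals that cover counting error only; open triangles mark 0 counts and are drawn at the 3 counts that a 0 allows. CYBA, NOXO1 and NOXA1 stand above that level in all 3 libraries, and the other 7 genes reach at most 2 counts.

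DUOX2 (ENSG00000140279, chromosome 15, 45092650 to 45114344, minus strand, GRCh38), the targeted gene, had 2 counts with siRNA 1 and 0 with siRNA 2, against 2 in the control. All 3 values lie under the 3 counts that a 0 allows, so the groups overlap and a knockdown was not detectable at this depth. The labels are therefore not checked by their target. Summed over the 3 libraries, DUOX2 had 4 counts, or 0.0720 CPM (95% Poisson interval 0.0196 to 0.184).

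DUOX1 (ENSG00000137857, 45129933 to 45165576, plus strand) had 0 counts with siRNA 1 and 2 with siRNA 2, against 0 in the control. DUOXA2 (ENSG00000140274, 45114321 to 45118421, plus strand) and DUOXA1 (ENSG00000140254, 45117367 to 45129938, minus strand) had 0 counts in every library. Such a 0 over all 3 libraries allows up to 0.0540 CPM, which per kilobase of merged exon is 0.0145 CPM for DUOXA1 and 0.0211 CPM for DUOXA2. The 4 genes form 2 head-to-head pairs in a cluster of 72.9 kb, and together they had 2 counts in each of the siRNA 1, siRNA 2 and control libraries.

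The stretch around the cluster was not without reads. In the cluster and within 100 kb on either side, 4 of 15 other genes had more than 3 counts in a library. Of the 3 protein-coding genes among the 15, 2 did, beside 71.4% of all protein-coding genes. SORD, which encodes sorbitol dehydrogenase, had 797 counts with siRNA 1 and 1009 with siRNA 2, against 865 in the control. SHF, an SH2-domain adaptor gene whose nearest end lies 1638 bases from DUOX1, had 78 and 62 counts with siRNA 1 and siRNA 2, against 76. The rest of the 4 were non-coding genes that reached at most 4 counts. AC051619.6, which overlaps DUOX1, had 0 counts with either siRNA, against 4 in the control. AC051619.8, which lies within SHF, had 4 and 3 counts with siRNA 1 and siRNA 2, against 2. The other 11 of the 15 had at most 3 counts in a library, among them the third protein-coding gene, SLC28A2, with 0 in all 3.

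Shared sequence and overlap limit the DUOX counts. DUOX1 and DUOX2 share 450 runs of 50 bases, 4.97% of those in DUOX1 and 4.41% of those in DUOX2, which leaves most runs of each gene unshared with the other. DUOXA1 and DUOXA2 overlap tail to tail on opposite strands, over 19.1% of the exon bases of DUOXA1 and 28.6% of those of DUOXA2, and AC051619.6, a non-coding gene over part of DUOX1 on the other strand, had 0 counts with either siRNA, against 4 in the control. The sources used here do not say whether counting used strand.

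The promoter stretches between each oxidase and its maturation factor are shown because each pair is read outward from one short stretch. They are RefSeq sequence (GRCh38.p14), plus strand, between the RefSeq starts of the 2 genes, and some GENCODE 29 transcripts start further inside. Capitals mark TATAAA or the GC box GGGCGG, on either strand (CCGCCC where reversed).
DUOX2 and DUOXA2, chr15:45114173-45114325: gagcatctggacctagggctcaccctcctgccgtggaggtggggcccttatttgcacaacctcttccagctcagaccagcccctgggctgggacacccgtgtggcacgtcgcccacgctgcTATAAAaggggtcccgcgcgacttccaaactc
DUOX1 and DUOXA1, chr15:45129880-45129993: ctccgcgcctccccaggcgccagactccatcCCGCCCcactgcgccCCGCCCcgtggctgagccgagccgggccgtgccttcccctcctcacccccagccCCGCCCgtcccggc
The DUOX2 stretch of 153 bases held 8 CG pairs, no GC box and a TATAAA on the DUOXA2 side. The DUOX1 stretch of 114 bases held 13 CG pairs and 3 GC boxes. Over the 250 bases before each of 35116 RefSeq starts, TATAAA was found in 10.7% of windows and the GC box in 42.6%. A match is a run of letters and does not show that a factor binds there.

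**Figure D2:**
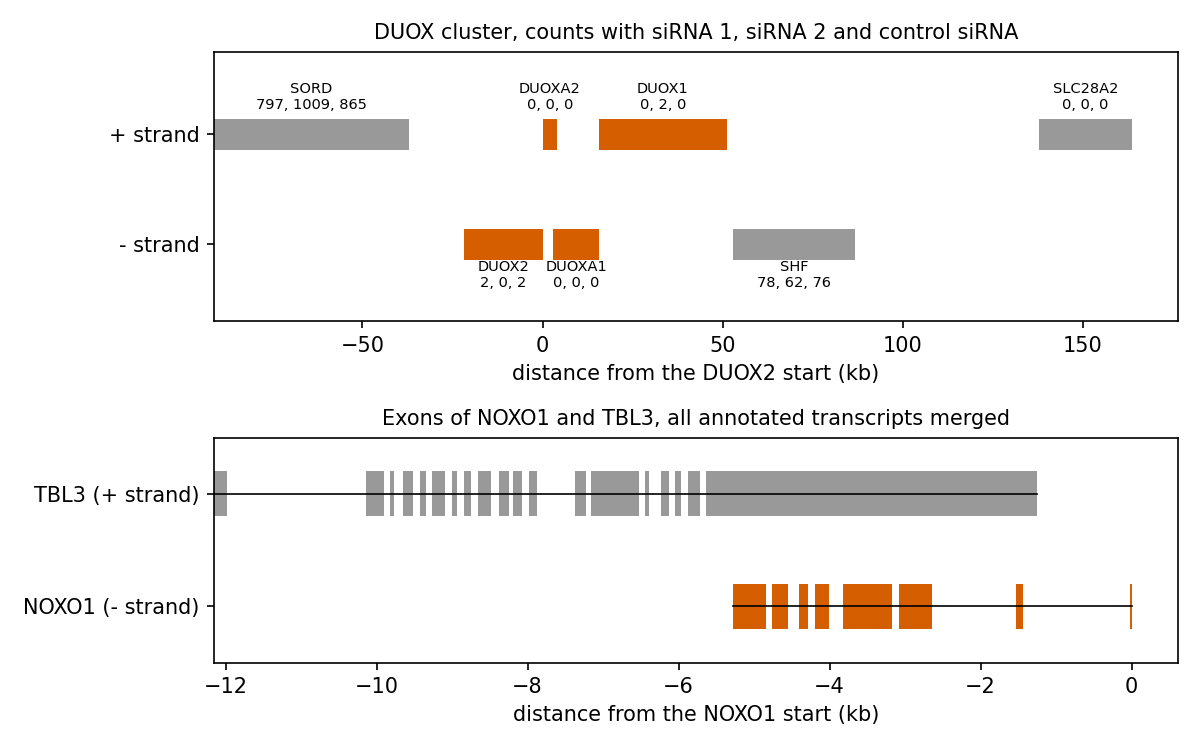
Upper panel: genes around the DUOX cluster by strand (vertical axis) and distance from the DUOX2 start in kb (horizontal axis), with counts in the order siRNA 1, siRNA 2, control; the 4 DUOX genes, in orange, have 0 to 2 counts beside 62 to 1009 for SHF and SORD and 0 for SLC28A2. Lower panel: merged exons of NOXO1 (orange) and TBL3 (grey) by distance from the NOXO1 start in kb; most NOXO1 exons lie under the last exon block of TBL3.

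NOX1 (ENSG00000007952, chromosome X, 100843324 to 100874345, minus strand) had 0 counts in all 3 libraries, which allows up to 0.0214 CPM per kilobase of exon over the libraries together. It shares no run of 50 bases with another gene. Genes at the same place had reads. HNRNPA1P26, a processed pseudogene inside NOX1, had 16 and 10 counts with siRNA 1 and siRNA 2, against 5 in the control. Reads of its parent gene may be among these, as counting at repeated sequence is not given in the sources used here. CSTF2, 2392 bases away, had 1252 and 1511 counts, against 1493.

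NOX4 (ENSG00000086991, chromosome 11, 89324356 to 89498187, minus strand) also had 0 counts in every library, allowing up to 0.00886 CPM per kilobase. NOX5 (ENSG00000255346, chromosome 15, 68930525 to 69062743, plus strand) had 2 counts with siRNA 1 and 0 with siRNA 2, against 0 in the control. Of the oxidases outside the 10 genes, CYBB, the phagocyte oxidase, had 1 and 2 counts with siRNA 1 and siRNA 2, against 0 in the control, and NOX3, the oxidase of the inner ear, had 0 in all 3. The 7 human catalytic genes together had 5 counts with siRNA 1 (95% Poisson interval 1.62 to 11.7) and 4 with siRNA 2 (1.09 to 10.2), against 2 in the control (0.242 to 7.22). These intervals overlap, and the sum of 11 counts (0.198 CPM, 0.0988 to 0.354) stands beside 1823 counts for CYBA alone.

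Factors known to act on the NOX1 promoter were read in the same libraries. CDX2, an intestinal homeobox factor, had 893 and 1204 counts with siRNA 1 and siRNA 2, against 2001 in the control (edgeR adjusted p = 0.125). GATA6, a zinc-finger factor of the gut, had 15 and 9 counts with siRNA 1 and siRNA 2, against 21, and GATA4 had 0 in every library. Of 5 such factors 3 were tested, none passed edgeR's test, CDX2 alone had an unadjusted p under 0.05, and their median log2 fold change was -0.76, or -0.38 after subtraction of the GC trend. NOX1 thus had 0 counts in cells with reads for CDX2 and GATA6 above the floor.

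CYBA (ENSG00000051523, chromosome 16, 88643283 to 88651152, minus strand) was the most abundant of the 10 genes. It encodes p22phox, the membrane partner that stabilises NOX1, NOX2, NOX3 and NOX4. It had 302 counts with siRNA 1 (95% Poisson interval 269 to 338) and 508 with siRNA 2 (465 to 554), against 1013 in the control (952 to 1077). Both siRNA libraries were below the control, and the 3 intervals did not overlap. The ratio of counts per library total was 0.274 (95% interval 0.240 to 0.312) for siRNA 1 over control and 0.468 (0.420 to 0.522) for siRNA 2 over control. These intervals compare libraries and cover counting error only. The siRNA libraries also differed from each other, with a ratio of 0.585 (0.506 to 0.676) for siRNA 1 over siRNA 2. No exon base of CYBA overlaps another gene, and 0.167% of its runs of 50 bases occur elsewhere.

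NOXA1 (ENSG00000188747, chromosome 9, 137423350 to 137434406, plus strand), the activator that joins NOX1 to RAC, had 17 counts with siRNA 1 (9.90 to 27.2) and 25 with siRNA 2 (16.2 to 36.9), against 53 in the control (39.7 to 69.3). Both siRNA libraries were below the control, and they could not be told apart from each other at this depth (ratio 0.669, 0.339 to 1.29). The ratios to the control were 0.295 (0.160 to 0.517) for siRNA 1 and 0.441 (0.262 to 0.722) for siRNA 2. Of its exon bases, 2.56% overlap ENTPD8 on the other strand.

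NOXO1 (ENSG00000196408, chromosome 16, 1978917 to 1984192, minus strand), the organizer that holds NOXA1 at the membrane, had 8 counts with siRNA 1 (3.45 to 15.8) and 12 with siRNA 2 (6.20 to 21.0), against 31 in the control (21.1 to 44.0). The ratios to the control were 0.237 (0.0942 to 0.528) for siRNA 1 and 0.362 (0.169 to 0.724) for siRNA 2. The NOXO1 value is uncertain, because 98.8% of its exon bases lie under exons of TBL3, a nucleolar WD-repeat gene on the other strand, as the exon map shows. Without strand, reads of these 2 genes cannot be told apart. TBL3 itself had 467 and 610 counts with siRNA 1 and siRNA 2, against 1121 in the control, with ratios to the control of 0.383 (0.343 to 0.427) and 0.508 (0.460 to 0.561).

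The order of the 3 genes, compared per length, was the same in all 3 libraries, with CYBA highest, then NOXA1, then NOXO1. On the authors' FPKM scale CYBA had 2.64 with siRNA 1 and 4.51 with siRNA 2, against 9.62 in the control. NOXA1 had 0.405 and 0.605 FPKM with siRNA 1 and siRNA 2, against 1.37, and NOXO1 had 0.0960 and 0.146 FPKM, against 0.404. In FPKM, CYBA stood 6.51 times (95% interval 4.0 to 11.3) above NOXA1 with siRNA 1 and 7.44 times (4.98 to 11.6) with siRNA 2, against 7.0 times (5.31 to 9.41) in the control. The 3 ratios overlap, so a difference in the balance of the 2 subunits between libraries was not detectable. The length behind the FPKM counts overlapping exons of different transcripts again and again, which sets all 3 levels low. With exons merged, CYBA had 4.70 and 8.04 CPM per kilobase with siRNA 1 and siRNA 2, against 17.2 in the control, and the ratio to NOXA1 in the control was 9.55 (7.25 to 12.8).

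Against all protein-coding genes CYBA was a gene of middle to high level. Its FPKM exceeded that of 66.0% of protein-coding genes with siRNA 1 and 73.2% with siRNA 2, against 84.6% in the control. NOXA1 exceeded 44.0% and 46.2% of protein-coding genes with siRNA 1 and siRNA 2, against 52.7%, and NOXO1 exceeded 35.5% and 36.8%, against 41.1%.

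The promoters of CYBA, read in every library, and NOX1, read in none, are set side by side as 150 bases before the RefSeq start, on the strand of each gene (RefSeq, GRCh38.p14), with GC boxes in capitals on either strand.
CYBA, chr16:88651054-88651203, minus strand: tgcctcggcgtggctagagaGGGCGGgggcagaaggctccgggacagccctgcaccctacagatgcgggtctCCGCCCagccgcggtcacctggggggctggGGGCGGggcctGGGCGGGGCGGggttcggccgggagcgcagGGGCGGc
NOX1, chrX:100874360-100874509, minus strand: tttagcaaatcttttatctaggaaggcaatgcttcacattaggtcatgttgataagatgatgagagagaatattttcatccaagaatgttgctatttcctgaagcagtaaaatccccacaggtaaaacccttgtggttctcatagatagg
The CYBA stretch held 15 CG pairs and 6 GC boxes, 2 of which overlap by 1 base, at a GC content of 78.7%. The NOX1 stretch held no CG pair, no GC box and no TATA motif, and its GC content was 36.7%. High GC content did not go with reads throughout the family, since the DUOX1 stretch reached 80.7% GC with 2 counts in all. In windows of 250 bases before RefSeq starts, NOXO1, read but uncertain, had 58.4% GC and no GC box. NOX4, with 0 counts, had a window of 72% GC with a GC box beside others of 39.6% and 26.4% without. NOXA1, read in every library, had 78.4% GC and a GC box, and NOX5, at up to 2 counts, had 48.4% and none. Whether promoter GC content bears on these counts was not tested.

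With the 2 siRNA libraries set against the control, none of the 10 genes passed edgeR's quasi-likelihood test with Benjamini-Hochberg adjustment at 0.05. The filter on low counts kept 3 of the 10 genes, the 3 with reads in every library. Over all 17263 genes tested, 10 passed, or 0.0579%, and 0.0405% passed with a lower value. At an unadjusted p under 0.05 all 3 genes were counted, beside 26.0% of all genes, and all 3 were lower, beside 14.5%. CYBA had a log2 fold change of -1.34 ± 0.32 (SE, edgeR adjusted p = 0.123), NOXA1 of -1.34 ± 0.42 (edgeR adjusted p = 0.146) and NOXO1 of -1.63 ± 0.51 (edgeR adjusted p = 0.146). With DESeq2, CYBA passed (adjusted p = 0.0379), NOXA1 and NOXO1 received no adjusted p, and 2.97% of genes with one were called lower, and with limma on FPKM none of the 3 genes passed. In bulk RNA a lower count from fewer expressing cells cannot be told apart from less RNA per cell.

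By a fixed rule of size, all 3 genes were at least 2-fold lower than the control with both siRNAs, as were 871 of all tested genes, or 5.05%. The log2 fold changes were -1.72 with siRNA 1 and -1.03 with siRNA 2 for CYBA, -1.52 and -1.06 for NOXA1, and -1.71 and -1.27 for NOXO1, and of the 3 only CYBA differed between the siRNA libraries beyond counting error (the ratio of siRNA 1 to siRNA 2 for NOXO1 was 0.656, 0.233 to 1.7). Their median over both siRNAs was -1.38, beside -0.0019 for all tested genes. Both siRNAs share a single control library, and no value of these has a replicate check.

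The fold changes of all genes ran with the GC content of their transcripts, and the 3 subunit genes lie at the GC-rich end. The GC content of the longest transcript was 61.3% for CYBA, 67.8% for NOXO1 and 70.0% for NOXA1, above that of 89.6%, 98.8% and 99.4% of tested genes, whose median was 48.5%. The 2335 tested genes of at least 60% GC had a median log2 fold change of -0.89. The smoothed trend at the GC content of each gene was -0.88 with siRNA 1 and -0.66 with siRNA 2 for CYBA, -1.31 and -0.99 for NOXO1, and -1.46 and -1.10 for NOXA1. The plot of fold change against GC content shows NOXA1 on this trend and CYBA and NOXO1 below it.

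With the trend subtracted, CYBA was at -0.85 with siRNA 1 and -0.37 with siRNA 2, NOXO1 at -0.39 and -0.28, and NOXA1 at -0.06 and 0.04. None of the 3 genes was then at least 2-fold lower with both siRNAs, beside 1.40% of all genes. The median of the 3 was -0.34, beside 0.0032 for all genes.

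**Figure D3:**
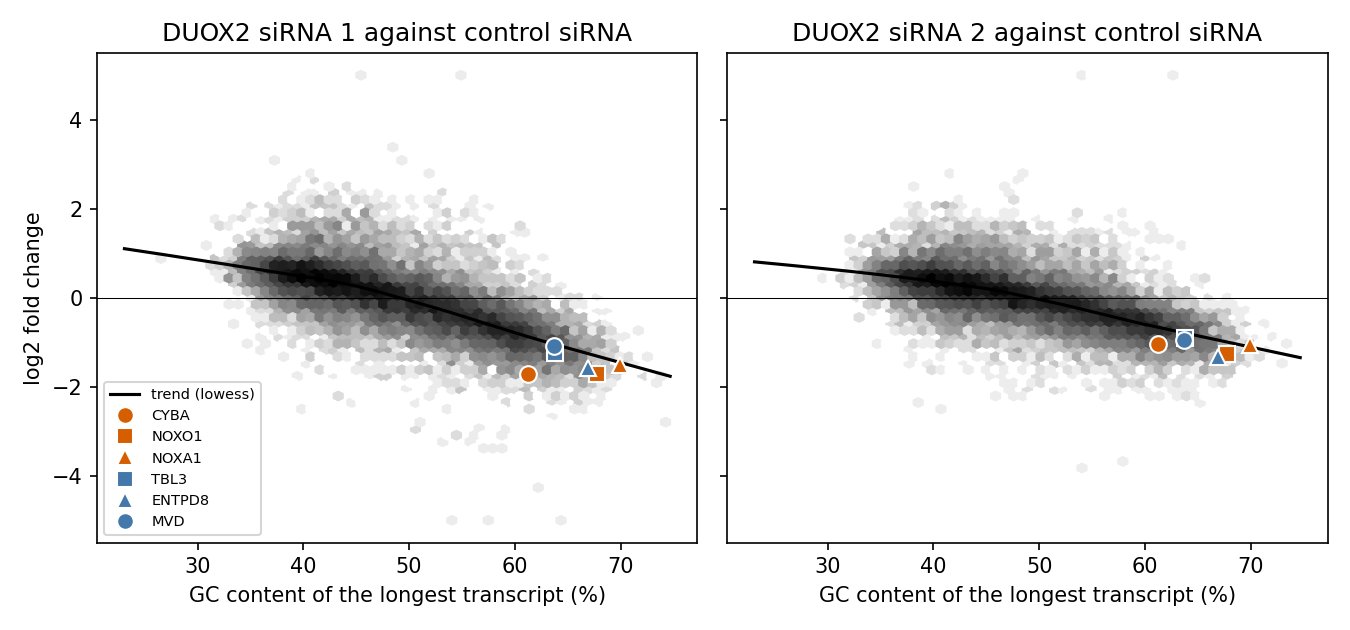
Log2 fold change over the control (vertical axis) against GC content of the longest transcript in percent (horizontal axis) for all tested genes, with siRNA 1 at the left and siRNA 2 at the right; darker cells hold more genes on a log scale, values past 5 in either direction are drawn at 5, and the line is the smoothed trend. NOXA1 lies on the line at 70.0% GC (-0.06 and 0.04 from it with siRNA 1 and siRNA 2), and CYBA (-0.85 and -0.37), NOXO1 (-0.39 and -0.28) and the neighbouring genes ENTPD8 (-0.33 and -0.37), TBL3 (-0.19 and -0.12) and MVD (-0.05 and -0.16) lie below it.

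Genes beside the 3 subunit genes were mostly lower as well, by differing amounts. ENTPD8, an ectonucleotidase gene that overlaps NOXA1, had 180 and 225 counts with siRNA 1 and siRNA 2, against 552 in the control, with log2 fold changes of -1.59 and -1.33. MVD, a gene of sterol synthesis 783 bases from CYBA, had 164 and 189 counts, against 357, with log2 fold changes of -1.09 and -0.95. After subtraction of the GC trend ENTPD8 was at -0.33 and -0.37 and MVD at -0.05 and -0.16. GFER, 15 bases from NOXO1, had 259 and 265 counts with siRNA 1 and siRNA 2, against 399 in the control, with log2 fold changes of -0.60 and -0.62, smaller than those of NOXO1, and of 0.33 and 0.08 after the subtraction. EXD3, 88 bases from NOXA1, had 113 and 104 counts, against 188, with log2 fold changes of -0.71 and -0.88, and of -0.17 and -0.47 after the subtraction. IL17C, 2810 bases from CYBA, had 3 and 6 counts with siRNA 1 and siRNA 2, against 1, and was too low to be tested. None of the neighbours tested passed edgeR's test (adjusted p = 0.12 for TBL3, 0.109 for ENTPD8, 0.125 for MVD, 0.175 for GFER and 0.171 for EXD3).

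Among the 3 protein-coding genes nearest to CYBA by distance of log2 CPM over the 3 libraries were CELSR1 (distance 0.153) and AGPAT2 (0.202). CELSR1 had 301 and 529 counts with siRNA 1 and siRNA 2, against 918, and AGPAT2 had 334 and 473, against 1083. The GC content of these genes was 61.4% and 65.9%, next to 61.3% for CYBA.

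The remaining oxidase subunits complete the picture of what was transcribed. Of 9 such genes, 5 had more than 3 counts in a library, beside 71.4% of protein-coding genes. None of the 5 passed edgeR's test, and at an unadjusted p under 0.05 RAC1 was higher and CYBC1 lower, 2 of 5 beside 26.0% of all tested genes in either direction. Their median log2 fold change was -0.52, beside -0.0019 for all tested genes, and 0.31 after subtraction of the GC trend. RAC1, the GTPase that switches NOX1 complexes on among many other roles, had 15257 counts with siRNA 1 and 14030 with siRNA 2, against 8036 in the control (edgeR adjusted p = 0.12). RAC1 has 9 processed copies in the genome, so its reads can be divided between copies. CYBC1, a chaperone of the phagocyte oxidase, had 286 and 297 counts with siRNA 1 and siRNA 2, against 464 (edgeR adjusted p = 0.154).

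The phagocyte organizer was not read, while the other RAC genes were. NCF1, which encodes that organizer and is a relative of NOXO1, had 0 counts in every library, as did its pseudogene copies NCF1B and NCF1C. NCF4 had at most 3 counts. RAC2 had 191 and 195 counts with siRNA 1 and siRNA 2, against 288, and RAC3 had 172 and 170, against 244. The leukocyte marker PTPRC had 0 counts in all 3 libraries.

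**Figure D4:**
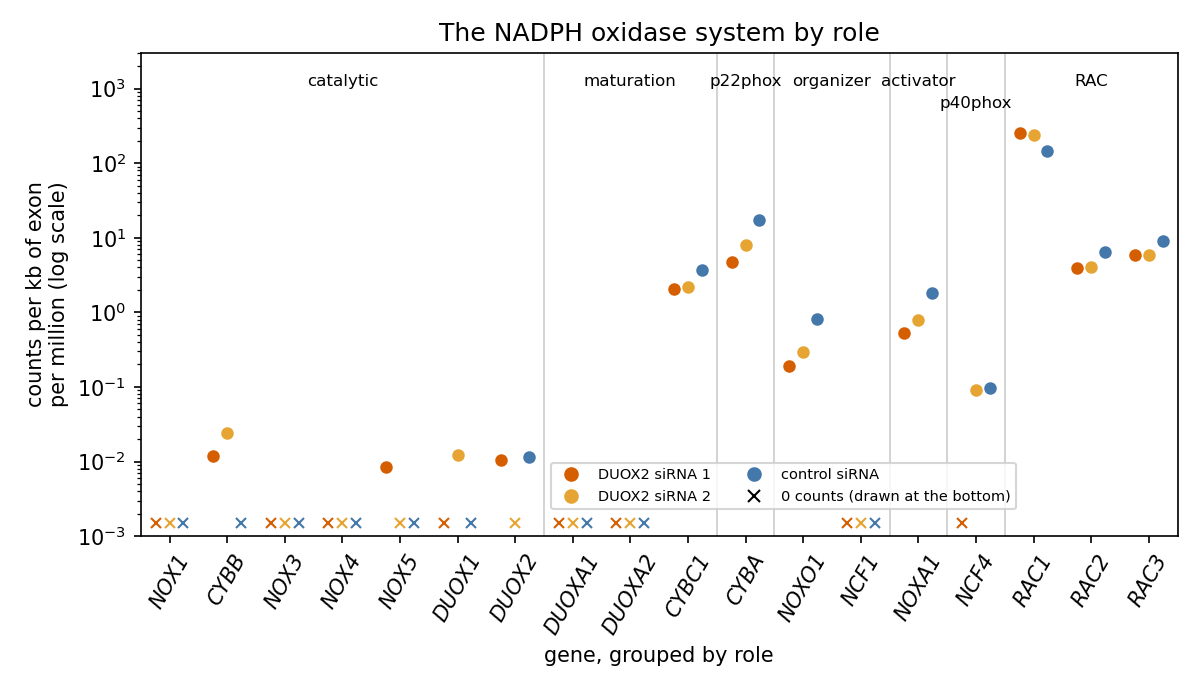
Counts per kilobase of merged exon, scaled to the library total (vertical axis, log scale) for the oxidase genes and subunits grouped by role (horizontal axis) in the siRNA 1, siRNA 2 and control libraries; crosses at the bottom mark 0 counts. All catalytic genes lie under 0.1 where they have a count, while CYBA, NOXA1, NOXO1, CYBC1 and the RAC genes lie above 0.1 in every library.

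Proteins that assist the oxidases were all read. All 8 had more than 3 counts in a library, beside 71.4% of protein-coding genes. None passed edgeR's test or had an unadjusted p under 0.05. Their median log2 fold change was -0.30, or -0.0035 after subtraction of the GC trend. CANX and CALR, chaperones of the endoplasmic reticulum where oxidases fold, had 21251 and 7969 counts with siRNA 1 and 17011 and 6687 with siRNA 2, against 23170 and 8973 in the control. POLDIP2, a partner of NOX4 and p22phox, had 1935 and 2429 counts with siRNA 1 and siRNA 2, against 2912. SH3PXD2A and SH3PXD2B, organizers related to NCF1, had 85 and 103 counts with siRNA 1 and 77 and 43 with siRNA 2, against 121 and 88 in the control.

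Other enzymes that release peroxide or superoxide were read widely where the oxidases were not. Of 32 genes for such enzymes, 27 had more than 3 counts in a library, beside 71.4% of protein-coding genes. None passed edgeR's test, and 6 had an unadjusted p under 0.05 and a lower value (14.5% of all tested genes did). The median log2 fold change was -0.51, or -0.09 after subtraction of the GC trend. PCYOX1, prenylcysteine oxidase, had 28.1 and 26.7 FPKM with siRNA 1 and siRNA 2, against 23.8 in the control. QSOX2, a sulfhydryl oxidase, had 19.3 and 19.4 FPKM, against 27.6, and KDM1A, a histone demethylase, had 17.9 and 18.4 FPKM, against 14.5. Each of these 3 exceeded the FPKM of every one of the 10 oxidase genes in each library. Among the genes of this list with at least 50 counts in a library, the widest mean fold changes were those of LOXL1, AOC1 and QSOX1. LOXL1 had log2 fold changes of -1.06 and -0.90 with siRNA 1 and siRNA 2, QSOX1 of -0.94 and -0.79, and AOC1 of -0.97 and -0.88. After subtraction of the GC trend LOXL1 was on the other side of 0, at 0.24 and 0.09, while QSOX1 was at -0.55 and -0.49 and AOC1 at -0.21 and -0.30.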

How the data were processed

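The deposited table holds raw counts per gene, and FPKM made by the authors from the same counts, per the file headers. The deposited FPKM equals the count per library total divided by a length, and in 92.1% of 13065 genes that length was within 1 base of the summed length of all distinct exons. Bowtie 0.12.2, GRCh38 and mm8 appear in the submitters' processing notes, and neither build is given a role there. Coordinates in the table are GRCh38. How reads were counted, with or without strand and at repeated sequence, is not given in the sources used here.

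Library totals were 19130768 with siRNA 1 and 18832672 with siRNA 2, against 17589502 in the control, so that 3 counts, the limit that a count of 0 allows, equal 0.157, 0.159 and 0.171 CPM in the siRNA 1, siRNA 2 and control libraries. Epithelial markers summed to 2965 and 4415 CPM with siRNA 1 and siRNA 2, against 4411, with 6 of 8 above 3 counts and CEACAM5 and CDH17 at 0. Leukocyte markers summed to between 15.9 and 17.4 CPM, fibroblast markers to between 2.30 and 3.75 CPM, endothelial markers to at most 0.512 CPM and retinal markers to at most 1.36 CPM.

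Counts were tested with edgeR 4.0.16 (R 4.3.3), with TMM scaling, a filter at a minimum count of 10, glmQLFit and glmQLFTest with 1 residual degree of freedom, and Benjamini-Hochberg adjustment over all tested genes. DESeq2 1.42.0 and limma 3.58.1 on log2(FPKM + 0.1) were alternatives. For each siRNA alone, log2 CPM (prior count of 2) of the control was subtracted from that of the siRNA library. Poisson intervals on counts and exact conditional binomial intervals on ratios are at 95% (scipy 1.17.1). They cover counting error only: no molecular identifiers were used, so reads need not be independent molecules. GC content came from the longest GENCODE 29 transcript, and its trend was fitted by lowess with a fraction of 0.3 and subtracted. Promoter windows are RefSeq, and all 10 genes had one.

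The genes and lists were chosen with earlier results of these data known. Named genes are the 10 members, genes that overlap or lie beside them, the 3 nearest to CYBA, and from each list any gene that passed, the 3 highest by mean FPKM and the 3 with the widest mean fold change among those with at least 50 counts in a library. CYBB, NOX3, NCF1, NCF1B, NCF1C, NCF4, GATA4, SORD and the markers at 0 were named in addition, after their values were seen. Some genes that this rule names are not reported here.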

Additional observations from a re-analysis of the deposited data

How the results depend on the processing

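The number of genes passing the test was 10 with edgeR, 567 with DESeq2 (263 higher, 304 lower), 63 where 0.10 was the threshold, and 0 with limma, with the GC trend as an offset, with the low-count filter dropped and with a minimum of 1 CPM in each library. The members among them numbered 0, but 1 (CYBA) with DESeq2. Over the alternatives the adjusted p ran between 0.0379 and 0.554 for CYBA, 0.146 and 0.993 for NOXA1, and 0.146 and 0.794 for NOXO1. Genes at least 2-fold from the control with both siRNAs numbered 1562 (691 higher, 871 lower), 817 with the GC trend removed (576 higher, 241 lower), 1654 with library totals in place of TMM (582 higher, 1072 lower) and between 2311 and 3523 with 1 siRNA library left out. The members among them were 3, 0 with the GC trend removed, 2 without NOXO1 (an alternative chosen after seeing the data) and 3 with either siRNA library left out. With the GC trend removed the mean log2 fold change was -0.61 for CYBA, -0.34 for NOXO1 and -0.01 for NOXA1. Library totals moved the median of all genes to -0.12 with siRNA 1 and -0.07 with siRNA 2. Members above the floor numbered 3, 2 at 10 or more counts in every library and 1 (CYBA) at 1 CPM or more in every library. CYBA over NOXA1 in the control was 7.0 in FPKM, 19.1 in CPM and 9.55 with merged exons, the last chosen after seeing the data. The cause of these shifts was not tested. No paired analysis was possible because the control has 1 library, shared by both siRNAs. The test was not rerun with 1 siRNA library left out, since no residual degree of freedom would remain, and the single control cannot be left out. Depth limits every statement on the 7 genes at 0 to 2 counts.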

Other observations

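Enzymes that remove superoxide and peroxide were read at far higher levels than the oxidases. Of 24 genes, 22 had more than 3 counts in a library, beside 71.4% of protein-coding genes. None passed edgeR's test. At an unadjusted p under 0.05, 1 was higher and 6 were lower. By that rule 14.5% of all tested genes were lower, and 26.0% were counted in either direction. The median log2 fold change was -0.28, or -0.04 after subtraction of the GC trend. TXN, thioredoxin, had 9487 and 9790 counts with siRNA 1 and siRNA 2, against 6178 in the control, and SOD1, the cytosolic superoxide dismutase, had 9009 and 9715, against 9444. PRDX1, a peroxiredoxin, had 4374 and 5076 counts, against 7854, with 24.9% of its exon bases shared with MMACHC. GPX1, a glutathione peroxidase, had 190 counts with siRNA 1 and 509 with siRNA 2, against 3131 in the control (log2 fold changes of -4.01 and -2.65, edgeR adjusted p = 0.105), and was still at -2.93 and -1.84 after subtraction of the GC trend. GPX1 was the only gene of this list at least 2-fold lower with both siRNAs, and it has 2 pseudogene copies. GPX4 had 967 and 1289 counts, against 2040, and GPX3 had 92 and 104, against 198.

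Haem peroxidases, which use hydrogen peroxide, were close to unread. Of 6 genes, 4 had 0 counts in every library, beside 23.1% of protein-coding genes. None was tested, and PXDNL had a single count, in the control. Of 6 aquaporins that can pass hydrogen peroxide, 4 had more than 3 counts in a library, beside 71.4% of protein-coding genes. AQP1 had 10 and 4 counts with siRNA 1 and siRNA 2, against 2 in the control. AQP11 had 27 and 25 counts, against 26, AQP3 had 9 and 4, against 16, and AQP5 had 3 and 8, against 22. None of the 3 aquaporin genes tested passed edgeR's test (adjusted p = 0.164 for AQP5), and their median log2 fold change was -1.15, or -0.64 after subtraction of the GC trend. AQP5 was at least 2-fold lower with both siRNAs before that subtraction and not after it.

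The seed of each siRNA guide strand, bases 2 to 8, is shown in capitals.
siRNA 1 guide: aACCACUAuguuguccucc
siRNA 2 guide: aUGAAGGAucgcaucaugg
control guide: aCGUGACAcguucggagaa
None of the 3 seeds had a complementary site in the longest transcript of CYBA, NOXO1 or NOXA1, where 13.7%, 33.4% and 7.34% of 13241 tested protein-coding transcripts hold one for siRNA 1, siRNA 2 and the control siRNA.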
